A study of Mus musculus with 3 samples.

Results

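T-box genes encode transcription factors that bind DNA through a shared domain, the T-box. The genes described here are Tbx1, Tbx2, Tbx3, Tbx4, Tbx5, Tbx15, Tbx18 and Tbx20, a chosen list, found on the array as every probe set whose annotation names that 1 gene. They are 8 of 18194 named genes and hold 18 of 45101 probe sets. Of the 8 genes, Tbx18, Tbx2, Tbx3 and Tbx20 were above background in all samples, Tbx15 in some, and Tbx1, Tbx4 and Tbx5 in none. Ureters were microdissected from the renal pelvis down to the bladder of wild-type embryos of the FVB/N mouse strain, on embryonic day 15, which is Theiler stage 23. There were 3 samples in 1 group, called replicates 3, 8 and 9 after the labels, with sex unknown and no pooling. Each was amplified in 2 rounds and put on its own Affymetrix Mouse Genome 430 2.0 array, read in 1 colour. Whether embryos or litters differed between samples is not stated, so the spread given with each level may be technical. With 1 group there was no contrast to test, and all values are descriptions.

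T-box factors of this kind act as activators or repressors, often by recruiting corepressors, and the members fall into related subfamilies. In the ureter, Tbx18 marks the undifferentiated mesenchyme around the epithelial tube, from which the smooth muscle and connective tissue coat forms, and mouse embryos without Tbx18 lack a normal muscle coat. Tbx2 and Tbx3 encode repressors that are also used in this mesenchyme, while the remaining members are best known for the pharynx (Tbx1), the limbs and lung (Tbx4), the forelimb and heart (Tbx5), the skeleton (Tbx15) and the heart (Tbx20).

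Of the members above background, Tbx18 and Tbx20 had an entry in the promoter set used here, as did Tbx1 and Tbx4 among the others. Thus 4 of 8 members matched, and a missing entry does not mean that a gene lacks an annotated start. The promoters of Tbx18 and Tbx20 are shown because these genes had an entry and signal above background on all arrays, and both were brightest in replicate 8. Each runs from 250 bases before the annotated start to 50 bases after it, 5′ to 3′ on the gene's strand, in build GRCm38.p6. The Tbx18 window is chr9:87731211-87731510 (minus strand) and the Tbx20 window is chr9:24774254-24774553 (minus strand). Capitals mark matches to any motif searched.
Tbx18: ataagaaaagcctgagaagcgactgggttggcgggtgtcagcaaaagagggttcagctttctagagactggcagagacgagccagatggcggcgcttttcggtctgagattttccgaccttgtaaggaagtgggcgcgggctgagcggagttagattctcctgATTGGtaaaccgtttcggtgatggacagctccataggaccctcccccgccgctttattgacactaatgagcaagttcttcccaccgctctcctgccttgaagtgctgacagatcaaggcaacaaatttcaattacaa
Tbx20: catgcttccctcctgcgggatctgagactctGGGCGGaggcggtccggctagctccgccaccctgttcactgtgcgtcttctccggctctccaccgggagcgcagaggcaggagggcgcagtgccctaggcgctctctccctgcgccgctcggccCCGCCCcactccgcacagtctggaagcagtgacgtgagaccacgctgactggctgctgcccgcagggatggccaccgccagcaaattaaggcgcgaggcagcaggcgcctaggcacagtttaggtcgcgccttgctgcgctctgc
Motifs were searched on both strands, the first being the half-site bound by T-box factors, AGGTGTGA. Its shorter core, which lies inside the half-site, was GGTGTG. The GC box was searched as GGGCGG, the TATA motif as TATAAA, the motif of GLI factors as GACCACCCA, the motif of TCF and LEF factors as CTTTGAT, and the CCAAT box by the letters of its name. The Tbx18 window held 1 match, a CCAAT box on the opposite strand 87 to 83 bases before the start, and 37.4% of 32851 promoters of the same length held that motif. The Tbx20 window held 2 GC boxes, which 35.7% of promoters held at least once. The Tbx18 window contained 15 CpG dinucleotides and the Tbx20 window 26, against a median of 7 over all promoters. Neither window held the T-box half-site or its core, which were present in 1.28% and 19% of promoters. The TATA motif, in 13.6% of promoters, the TCF and LEF motif, in 3.73%, and the GLI motif, in 0.253%, were not found in either window. A match is a run of letters and says nothing of binding.

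Background was read from a list of genes that mark other organs (testis, retina, lens, mammary gland, pancreas, stomach, pituitary, thyroid and cerebellum), 54 of 60 of which were measured. The 95th percentile of that list lay at 597, 403 and 598 signal units (replicates 3, 8 and 9), and a gene was called above background when it exceeded that value on each array. Signals are linear intensities, and the brightness of a probe set also depends on its own sequence, so the level of 1 gene is not set against that of another. Over all named genes, 50.3% were above background on the 3 arrays, a share near that of the members (4 of 8). The median signal of the arrays was 234, 198 and 273 in replicates 3, 8 and 9, and Pearson's r across genes above background ranged between 0.933 and 0.943 for the pairs of arrays.

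**Figure D1:**
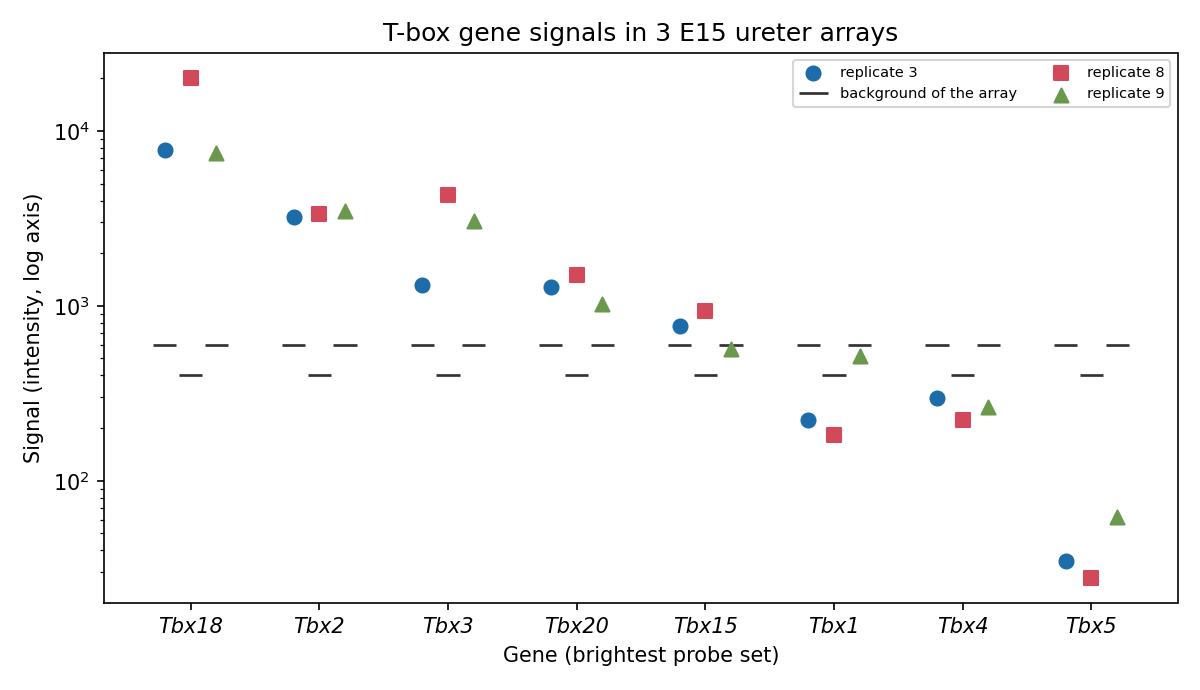
Signal (intensity, log axis) of the brightest probe set of each T-box gene in the 3 ureter arrays, with 1 point per array and a short bar at that array's background. Tbx18, Tbx2, Tbx3 and Tbx20 lie above the bar on every array, Tbx15 on 2 arrays, and Tbx1, Tbx4 and Tbx5 on none.

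Tbx18 was bright on every array and differed most in 1 sample. Its brightest probe set (1429974_at) had signals of 7828, 20079 and 7442 in replicates 3, 8 and 9, a mean of 11783 ± 7187 (SD, n = 3, which holds for every ± below unless stated). Replicate 8 was high, and the other two samples lay close together. The highest array was 2.70-fold above the lowest, a range of 1.43 on the log2 scale of signal + 1. Without replicate 8 the range was 0.07 and the mean signal 7635 ± 273 (SD over the remaining 2 arrays).

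The second Tbx18 probe set (1449871_at), which carries a RefSeq transcript as its annotation, was also above background on all arrays. It gave signals of 1004, 1582 and 668 in replicates 3, 8 and 9, with a range of 1.24. Both probe sets were thus highest in replicate 8 and lowest in replicate 9. Replicate 8 exceeded the mean of replicates 3 and 9 by 1.40 (log2) with the brighter probe set and by 0.95 with the dimmer one. The probe sets read the same RNA and are not independent replicates.

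Tbx2, the repressor gene known for restraining cell cycle inhibitor genes, was the steadiest member. Its only probe set (1422545_at) had signals of 3211, 3367 and 3494 in replicates 3, 8 and 9, a mean of 3357 ± 142. The 3 samples were nearly level, with a range of 0.12 (log2), or 0.05 without replicate 3 and 0.07 without replicate 9. Among all genes above background, 4.33% had a smaller range.

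Tbx3, the closest relative of Tbx2, varied more than any other member above background. Its brightest probe set (1448029_at) had signals of 1323, 4308 and 3041 in replicates 3, 8 and 9, a mean of 2891 ± 1498. Here replicate 3 was low, and replicates 8 and 9 lay closer together. The range was 1.70 (log2), and 0.50 without replicate 3, where the mean signal was 3675 ± 896 over the remaining 2 arrays. A second probe set (1437479_x_at) ordered the samples the same way, with signals of 1143, 2096 and 1648 and a range of 0.87. The other 3 Tbx3 probe sets were below background on every array, with mean signals of 55, 29.4 and 11.6. An antisense transcript, Tbx3os1, overlaps Tbx3 in the reference annotation, and which part of the locus each probe set reads was not analysed here.

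Tbx20, a heart development gene of the Tbx1 subfamily, was above background by 1 of its 3 probe sets. That probe set (1453351_at) had signals of 1288, 1494 and 1021 in replicates 3, 8 and 9, a mean of 1268 ± 237. All samples lay within a range of 0.55 (log2), close to the median range of 0.53 over genes above background. That range was 0.33 without replicate 8 and 0.21 without replicate 9. A probe set annotated with a RefSeq transcript of Tbx20 (1422219_a_at) had signals of 52.3, 21.7 and 15.9, and the last one (1425158_at) 62.9, 156 and 307, all below background. The Tbx20 call therefore rests on a single probe set annotated with a GenBank sequence, and the mean over the 3 probe sets was not above background on any array.

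Tbx15, a close relative of Tbx18 known from skeletal development, lay at the edge of background. Its brighter probe set (1418755_at) had signals of 767, 928 and 566 in replicates 3, 8 and 9, a mean of 754 ± 182. It was above background in replicates 3 and 8 and just below it in replicate 9. The other probe set (1422195_s_at) had signals of 92.8, 152 and 190 and was below background throughout. With background set at the 90th percentile instead, the brighter probe set passed on all 3 arrays.

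Tbx1, Tbx4 and Tbx5 were below background on every array. The Tbx1 probe set had signals of 222, 183 and 519 in replicates 3, 8 and 9, so that replicate 9 came nearest to background. Tbx4 had signals of 296, 223 and 266 with its brighter probe set and 49.2, 61.1 and 82.2 with its other one. Tbx5 had signals of 34.6, 27.9 and 61.8 with its brighter probe set and 12.6, 5.48 and 7.73 with its other one. These calls depend on where background is set: at the 75th percentile of the same list (181, 142 and 202 in replicates 3, 8 and 9), Tbx1 and Tbx4 passed on all arrays and Tbx5 on none, while 65.9% of all named genes passed. A dim probe set can miss an expressed transcript, so these values do not show that the genes were silent. RNA amplified from the poly(A) tail covers distant sequence poorly, and a probe set placed there can be dim.

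In the reference gene table, Tbx2 and Tbx4 are neighbouring protein-coding genes on chromosome 11, and Tbx3 and Tbx5 are neighbours on chromosome 5. In each pair 1 gene was above background on all arrays (Tbx2 and Tbx3) and its neighbour on none (Tbx4 and Tbx5), although Tbx4 passed with background at the 75th percentile. Tbx18 and Tbx20 lie on chromosome 9 but are not neighbours.

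Across the 18 probe sets, 6 were above background on all arrays, 1 on some and 11 on none, against 38.3% of all named probe sets above background on all arrays. Of the 6, both Tbx18, both Tbx3 and the Tbx20 probe set were highest in replicate 8, and the Tbx2 probe set in replicate 9. By gene, 3 of the 4 members above background were highest in replicate 8, against 36.1% of all genes above background. These members share the same 3 arrays, so they are not separate observations of replicate 8. A range of at least 1 (log2) was found for 2 of the 4, Tbx18 and Tbx3, against 13.2% of genes above background. Their ranges exceeded those of 96.2% (Tbx18) and 98.2% (Tbx3) of genes above background.

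**Figure D2:**
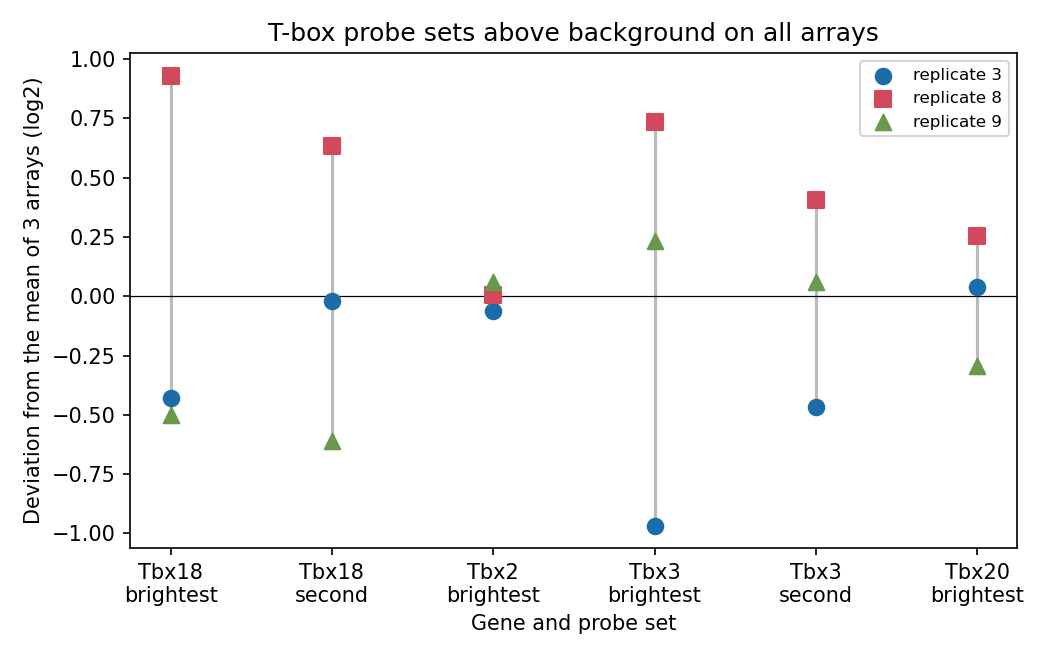
Deviation of each array from the mean of the 3 arrays (log2 of signal + 1) for the 6 T-box probe sets above background on all arrays, with 1 point per array and a grey line over the range. Replicate 8 is the highest point in all but the Tbx2 probe set, and replicate 3 is the low point of both Tbx3 probe sets.

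**Figure D3:**
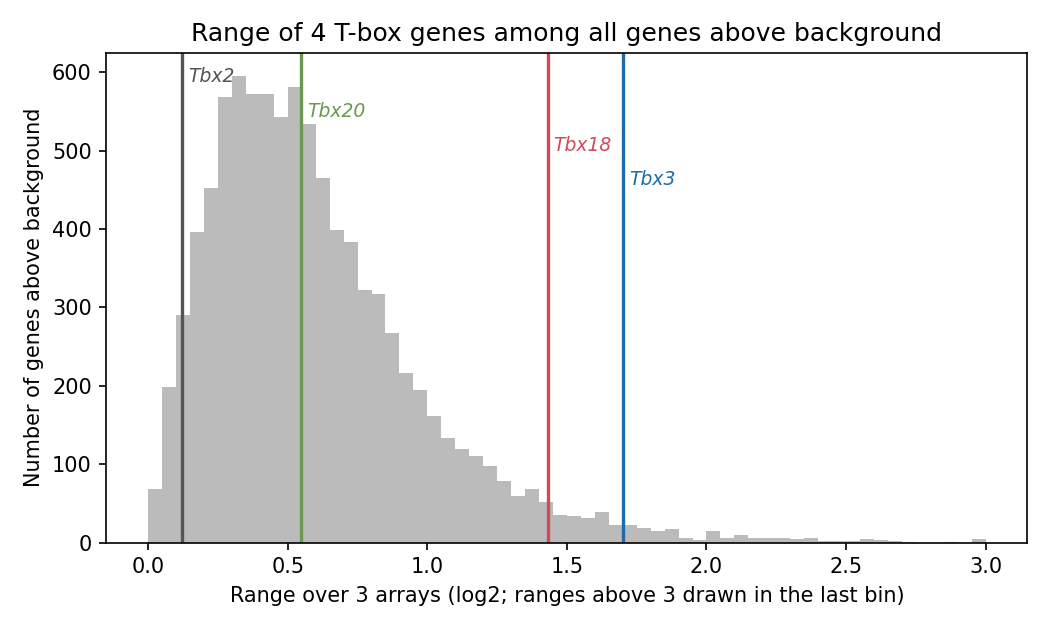
Number of genes above background (vertical axis) by range over the 3 arrays in log2 (horizontal axis), with vertical lines at 4 T-box genes. Tbx2 (0.12) lies at the low end, Tbx20 (0.55) near the middle, and Tbx18 (1.43) and Tbx3 (1.70) in the upper tail.

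Other cell types' markers were set beside the differences between samples. They are given by their summed signal and, because 1 bright gene can carry a sum, by the median deviation from the 3-array mean (log2) of the genes above background. The summed signal of 10 urothelial genes, 6 of them above background, was 34085, 40252 and 31580 in replicates 3, 8 and 9, and their median deviation in replicate 8 was 0.14. For 12 heart genes, 7 of them above background, the sums were 79736, 76871 and 69923. Without Actc1, the cardiac actin gene, the heart sums were 36893, 44579 and 26838. The median deviations of all 7 genes, Actc1 included, were 0.15, 0.38 and -0.11. The heart sum was thus highest in replicate 3 with Actc1 and in replicate 8 without it. Single heart genes differed too, as Myh6 (841, 479 and 661) and Myl4 (11834, 9697 and 10272) were lowest in replicate 8.

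The limb and cartilage list (3 of 10 above background) had sums of 10164, 13657 and 9935, and a median deviation of 0.44 in replicate 8. For 10 smooth muscle genes, 6 of them above background, the sums were 64092, 66428 and 55998, highest in replicate 8. Mylk, the myosin kinase gene, was left out because it sets the order of that sum. Without Mylk the smooth muscle sums were 43051, 38724 and 43252, lowest in replicate 8. The brighter Acta2 (32410.5, 27441 and 35287.5), itself lowest in replicate 8, stayed in these sums. Their order thus depends on single genes and gives no direction for smooth muscle. The median deviations of the 6 genes were 0.11, 0.035 and -0.13. The lung list (1 of 10 above background) had sums of 3646, 5129 and 4087, but without Etv5 (2117, 4165 and 2139) the remaining 9 genes summed to 1529, 965 and 1949. The skeletal muscle list (8 of 12, 78178, 68166 and 64800) and the mesothelial list (6 of 8, 22898, 15674 and 14961) were highest in replicate 3 by sum and by median deviation. Highest in replicate 8 were 3 of 6 urothelial, 4 of 7 heart, 2 of 3 limb and cartilage, 2 of 6 smooth muscle, 3 of 8 skeletal muscle and 0 of 6 mesothelial genes above background, against 36.1% of all genes above background. The part of these in the Tbx18 and Tbx3 differences was not tested. In whole tissue, fewer cells of a type and less RNA per cell cannot be told apart.

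Of the urothelial markers, the uroplakin gene Upk1b (2544, 1816 and 938 in replicates 3, 8 and 9) was above background on every array, as were Krt5, Krt8, Foxa1, Gata3 and Grhl3. Upk3a (128, 515 and 110) and Elf3 (504, 474 and 512) passed in replicate 8 alone, and the uroplakin genes Upk1a and Upk2 on no array. Elf3 was lowest in replicate 8 and passed there because background was lower on that array (597, 403 and 598 in replicates 3, 8 and 9). Of the smooth muscle markers, Acta2 (31713 ± 3969), Actg2, Tagln, Mylk, Smtn and Synpo2 were above background on every array, Myh11, Myocd and Des on 2 arrays, and Cnn1 on 1. Of the heart markers, Myh7 (8817 ± 2609), Myl2 (4464 ± 3223), Myl3 (3542 ± 1980), Tnnt2 (6921 ± 2265), Myh6 (660 ± 181), Actc1 (39407 ± 6162) and Myl4 (10601 ± 1106) were above background on every array. Of these, Myh7, Myl2, Myl3 and Tnnt2 were highest in replicate 8. Many of these sarcomere genes are also used in embryonic or slow skeletal muscle. Tnni3 passed in replicate 8 alone, and the atrial genes Myl7 (256 ± 13.0) and Nppa (69.8 ± 56.7), the cardiac factor gene Nkx2-5 (189 ± 45.2) and Ryr2 (380 ± 120) on no array. All lung markers but Etv5 (2807 ± 1176), which the ureteric bud also uses, were below background on every array, among them the surfactant gene Sftpc (250 ± 61.2). Among limb and cartilage markers, Col9a1 (5624 ± 1685), Hoxc10 (2180 ± 406) and Hapln1 (1359 ± 550) were above background on every array and Sox9 in replicate 8 alone. The hindlimb gene Pitx1 (405 ± 121) and the cartilage genes Col2a1 (288 ± 105), Acan (333 ± 202), Matn1 (196 ± 92.9), Comp (264 ± 68.9) and Matn3 (36.2 ± 33.4) were below background on every array. The 3′ to 5′ ratio of control probe sets depends on RNA quality and on amplification from the poly(A) tail. These cannot be told apart here. For Actb the ratio was 7.46, 6.50 and 4.01 in replicates 3, 8 and 9, and for Gapdh 18.9, 15.1 and 16.4. Replicate 8 was at an extreme for Gapdh, which had its lowest ratio there, and not for Actb.

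Of the T-box genes outside the members, 7 of 9 were measured and 1 was above background on all arrays. That gene was Mga, which encodes a large protein with a T-box and a second DNA-binding domain, at 4522, 4554 and 5780 in replicates 3, 8 and 9 (4952 ± 717). Its other 4 probe sets were below background on every array. The somite gene Tbx6 (60.2 ± 2.4), the pituitary gene Tbx19 (120 ± 35.5), the T cell gene Tbx21 (19.3 ± 6.9), the palate gene Tbx22 (17.5 ± 21.0), the neuronal gene Tbr1 (26.1 ± 20.8) and Eomes (118 ± 70.7) were below background on every array. Thus 5 of 15 measured T-box genes were above background, against 50.3% of all named genes.

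Genes whose proteins act with T-box factors were above background for 9 of 14 measured (64.3%), against 50.3% of all named genes. Among the 9 were the histone deacetylase genes Hdac2 (17629 ± 3668) and Hdac1 (8459 ± 1206), the chromatin gene Rbbp4 (41131 ± 6827) and Tle4 (10423 ± 2886), a Groucho-type corepressor gene. The transcription factor genes Gata4 (187 ± 23), Nkx2-5 and Pax3 (232 ± 70.4), whose proteins are known to bind Tbx18 in mouse, were below background on every array. So were Tle5 (453 ± 152), a short Groucho-related gene, and Cbx3 (316 ± 96.2), a heterochromatin protein gene with 1 probe set named for it alone.

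Genes reported as T-box targets were above background for 6 of 13 (46.2%), near the 50.3% of all named genes. The gap junction gene Gja1 had signals of 24325, 18417 and 24150 in replicates 3, 8 and 9, and the cell cycle inhibitor gene Cdkn1a had 5214, 3229 and 5009. Shisa3, which encodes a WNT antagonist, varied most of the 6, with 11561, 4014 and 2316 in the same samples, and Ndrg1, reported as repressed by TBX2 in human cells, had 17797, 10967 and 6879. All of these were highest in replicate 3. The BMP modulator gene Bmper had 10281, 16982 and 8297, and Cdh1, the gene of the epithelial adhesion protein E-cadherin, had 2029, 4767 and 1759. Thus 2 of the 6 targets were highest in replicate 8, against 36.1% of all genes above background. The other 4 were highest in replicate 3, against 3046 of all 9146 genes above background. Of these 4, Gja1 and Cdkn1a were nearly level between replicates 3 and 9. The cell cycle inhibitor gene Cdkn2a (44.0 ± 26.2), the connexin gene Gja5 (20.2 ± 12.7), the atrial peptide gene Nppa and the limb and lung growth factor gene Fgf10 (153 ± 34.5) were below background on every array. Cdkn1b (456 ± 357) passed on 1 array, and the WNT modulator gene Frzb (630 ± 193) and the Notch ligand gene Dll1 (820 ± 285) on 2 arrays each.

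Genes of signals and factors that act in the ureteric mesenchyme were above background for 15 of 18 (83.3%), against 50.3% of all named genes. Among the 15 were the beta-catenin gene Ctnnb1 (49403 ± 8255), the Hedgehog receptor gene Ptch1 (14273 ± 4419), Smo (10503 ± 1832) and the Hedgehog effector gene Gli2 (9345 ± 2620). The ligand gene Wnt9b (177 ± 118) was below background on every array, and Gli1 (467 ± 80.9) and Sox9 (567 ± 284) passed on 1 array each. Of the 15, 7 were highest in replicate 8, against 36.1% of all genes above background. Ptch1 was 1 of the 7, with signals of 11374, 19358 and 12085 in replicates 3, 8 and 9, whereas Smo, with 12343, 8679 and 10486, was lowest in replicate 8. The median range over the 3 samples was 0.75 (log2) for the 15 ureteric signal genes, 0.54 for the 9 partner genes and 1.20 for the 6 reported targets.

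**Figure D4:**
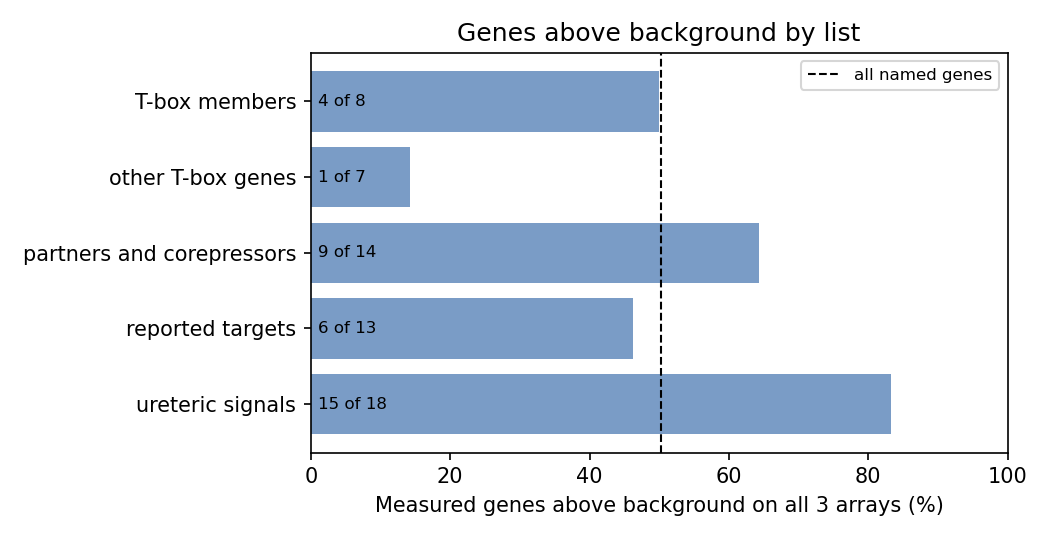
Percent of measured genes above background on all 3 arrays (horizontal axis) for the T-box members and 4 related lists, with counts in the bars and a dashed line at the share of all named genes (50.3%). The T-box members (4 of 8) lie at that share, the ureteric signal genes (15 of 18) above it and the other T-box genes (1 of 7) below it.

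The 5 genes most like Tbx18 over the 3 arrays, by Euclidean distance between log2 deviations among 9145 genes above background, were Cdh1 (distance 0.11), Cadps2 (0.15), Kcnd3 (0.15), Map3k5 (0.15) and Tfcp2l1 (0.16). Cdh1 is also 1 of the reported targets described above, a list for T-box factors in general. Whether Tbx18 acts on Cdh1 was not tested. Tfcp2l1, a transcription factor gene of the collecting duct, had signals of 888, 2573 and 975 in replicates 3, 8 and 9. Each of the 5 was highest in replicate 8, and 12 genes lay within a distance of 0.2. The other members above background were farther away, Tbx20 at 0.85, Tbx3 at 0.93 and Tbx2 at 1.14. With 3 arrays many patterns coincide, so likeness here describes these samples.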

How the data were processed

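Total RNA was measured on 3 arrays of 1 group. The values the authors deposited are intensities on a linear scale, with 1 signal for each probe set on each array, made with GCOS, per the submitters' processing notes; its version, algorithm and background handling are not known here. The trimmed mean (2% at each end) was 1500 on each array, so arrays had been scaled to a common mean, and a level is relative to what else its array shows. Arrays have no read depth, and their number limits the precision.

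Gene names came from the platform's annotation table, with 34958 probe sets having 1 symbol, 932 several and 9211 none. Of the 34958, 34754 matched the reference gene table of assembly GRCm38.p6 by Entrez ID, and no symbol changed. Each gene's level is that of the brightest of its probe sets by mean log2(signal + 1). Background was the 95th percentile of the reference list on each array. For likeness to Tbx18, deviations from the 3-array mean were used after taking off each array's median deviation over genes above background. The accuracy of the background calls and of the likeness to Tbx18 was not tested. No significance test was run, because there is no second group.

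The members and lists were chosen with earlier results of these data known. Named are all members and probe sets, all other measured T-box genes, up to 4 genes of the highest mean signal and all genes not above background per related list, marker genes of the highest mean or below background, and the 5 genes most like Tbx18; by level, this rule does not rank transcripts. Among the targets, Cdkn1a and Cdh1 were named after their values were seen, as were the remaining marker genes. Python 3.11.15 with pandas 2.3.3, NumPy 2.4.6 and Matplotlib 3.10.9 was used. Alternatives were quantile normalization, other pseudocounts, the mean over all probe sets of a gene, no probe sets of the _x_at or _s_at type, other percentiles, 2 arrays in place of 3, and leaving out each replicate.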

Additional observations from a re-analysis of the deposited data

How the results depend on the processing

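Of 380 recomputed values, 112 could not change because the alternative leaves their numbers untouched. Of the other 268, 233 were counted as kept and 35 as moved. A mean signal or range was kept when it shifted by less than the gene's own SD over the 3 arrays. A count was kept within a set fold of its main value. This rule is loose for variable genes. The Tbx18 mean without replicate 8 (7635 against 11783) was kept, as was the target count without replicate 9 (8 against 6). With all probe sets of a gene averaged, 2 of 8 members (Tbx18 and Tbx2), 0 other T-box genes and 9 ureteric signal genes were above background, and over all genes 37.1%. With background at the 99th percentile the members numbered 2 and the ureteric signal genes 9, with 37.8% over all genes. In both cases Tbx18 and Tbx2 were the members above background. The lower level or higher background is part of how these alternatives are built. The count of members stayed at 4 with quantile normalization, with pseudocounts of 16 and 64 and with _x_at and _s_at probe sets left out. Tbx15 also passed with the 90th percentile, where background was 286, 271 and 404 in replicates 3, 8 and 9. It passed as well on at least 2 arrays, without replicate 9 and without Tff1 and Iyd in the reference list. Leaving out these 2 genes was chosen after seeing the data because they were among the brightest of the list. The reference genes above background on all 3 arrays were Tff1 and Cela1, and Cela1 was kept in that alternative. Leaving out each replicate gave 4 to 5 members above background. Genes within 0.2 of Tbx18 numbered 35 with no filter on low values and 7 with quantile normalization, against 12, and the 5 nearest genes shared 0 and 2 with those named; without centring all 5 were shared. The planned second reference list was not at hand, so that alternative was not run. An earlier list for these arrays set background lower than the one used here, so fewer genes are called above background here than with that list. As a lower background, chosen after seeing the data, the 75th percentile gave 7 of 8 members (all but Tbx5), with 65.9% over all genes. No paired analysis was possible because the samples form 1 group. Limits are the 3 arrays, the reference list, which sets background through few genes, and probe sets that differ in brightness.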
